A study of Danio rerio with 70 samples.

Results

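T-cell acute lymphoblastic leukaemias (T-ALLs) of the zebrafish mutant lines otg and hulk were compared, 10 otg tumours with 9 hulk tumours, out of 70 libraries in the series. The libraries were chosen by the line named in their labels and by no measured value. The tumours of both lines came from fish of genotype otg;Tg(lck:GFP) or hulk;Tg(lck:GFP), were primary, were sorted as T-ALL cells, and were taken once GFP-positive leukaemia occupied 90% of the fish. Sorted GFP-positive thymocytes of preleukemic fish of the same lines, 4 otg and 3 hulk samples, gave a second comparison that shares no library with the tumours. The 10 tumours of the third line, shrek, and 5 sorted healthy thymocyte samples of Tg(lck:GFP) fish are given beside them for level. They were also part of the main model. All of these fish carry GFP under the lck promoter, which is active in T-lineage cells, so sorting kept cells in which that promoter was on. The labels give neither the age of the fish nor the gene mutated in each line. They do not say whether each library came from a different fish, so p-values measure spread between libraries. In the main model that spread was estimated over all 8 groups of this laboratory together. Besides the groups named above, these were 2 shrek and 3 hMYC preleukemic samples. The other groups varied less than the otg and hulk tumours.

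T-ALL arises from thymocytes stopped at some stage of their development. Early thymocytes cut and join their antigen receptor genes with the RAG1 and RAG2 recombinase, then show the coreceptors CD4 and CD8 together, and later keep one of them. MYC drives growth in many of these leukaemias, and its own transcription is often held up by the Notch receptors. In the fish lines studied here the leukaemia is heritable, and GFP made the expanding T cells visible.

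Each hulk tumour gave 10899692 to 16260759 reads in genes and each otg tumour 11221370 to 16330010. The libraries differed in makeup within each line. Genes encoded in the mitochondrial genome took 61.4% of the reads of hulk tumour 2 and 25.0% of those of hulk tumour 1, and at most 11.9% in the other tumours of both lines. Genes with at least 10 reads numbered 11590 to 16896 in hulk tumours (median 15662) and 9837 to 13767 in otg tumours (median 12560). The scaling factors of the trimmed mean of M-values (TMM) were lowest in otg 8 (0.319), hulk 7 (0.49), otg 5 (0.505) and hulk 2 (0.567). Values below are CPM, the reads of a gene relative to its library's total after scaling by these factors. The T-cell label held by its markers: lck, the kinase next to the T-cell receptor, stood at 298 to 1591 CPM in hulk and 468 to 1471 CPM in otg tumours, and ZAP70, cd247, il7r, RAG1 and RAG2 were read in every tumour. One marker of that list, cd247l, was at or near 0 in most otg tumours (median 0.0863 CPM) against a median of 5.76 CPM in hulk.

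With all 8 groups of this laboratory in 1 model, 6196 of 21831 genes differed between the tumours (edgeR quasi-likelihood F-test, adjusted p under 0.05), which is 28.4% of those tested. Of these, 2029 (9.29%) were higher in otg and 4167 (19.1%) higher in hulk, around a median log2 difference of -0.06 over all genes. The hulk-high group was rich in barely read genes, since 1594 of the 4167 averaged under 1 CPM even in hulk, against 185 of the 2029 otg-high genes. Scaling by library size alone moved the median of all genes to -0.35 and gave 799 genes higher in otg and 5116 higher in hulk.

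The number of calls depended strongly on the libraries in the fit and on the genes tested. The median standard deviation of a gene's log2 CPM was 1.17 among otg tumours and 0.743 among hulk tumours, but 0.544 among shrek tumours, 0.593 and 0.262 among hulk and otg preleukemic samples and 0.528 among healthy ones. When only the otg and hulk tumours were fitted, which also left fewer genes past the filter on low counts, 650 of 13518 genes (4.81%) differed, 170 (1.26%) higher in otg and 480 (3.55%) higher in hulk. With the same libraries and the genes tested with all groups, 3504 of 21800 differed, so both the libraries and the filter moved the count. Of the 650, 647 were also called in the same direction with all groups. Where a gene below has a pair of adjusted p-values, the first is with all groups and the second with both tumour lines alone; a single value is with all groups.

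A small set of genes separated the lines without overlap. Every tumour of one line lay above every tumour of the other for 138 genes, 0.632% of those tested, of which 29 (0.133%) were higher in otg and 109 (0.499%) in hulk. In 41 of them the higher line averaged at least 8 CPM. Leaving out the 4 tumours with a scaling factor under 0.6 gave 499 such genes, but leaving out any tumours can only keep or raise this number. Fold changes of this set were fixed by its choice and are given as description.

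The hulk-high genes were led by cdh29, a member of the cadherin family of adhesion molecules. It read 8.90, 35.6 and 371 CPM (lowest, median, highest) in hulk tumours and 0 to 0.192 CPM in otg tumours, a total of 4 reads over all 10. The groups lay far apart, with a log2 difference (otg less hulk) of -10.67 ± 1.35 (SE; adjusted p = 8.99e-07, and 8.93e-07 with both lines alone). Preleukemic thymocytes showed the same split, 38.3 to 84.4 CPM in hulk and at most 0.0578 CPM in otg, while shrek tumours ranged from 0.0479 to 212 CPM.

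The gene rps11l, named as a copy related to the small-subunit ribosomal protein S11, read 32.1, 160 and 522 CPM in hulk tumours and 0.152, 0.580 and 5.87 CPM in otg tumours. The lines did not overlap, and the log2 difference was -7.10 ± 0.66 (adjusted p = 4.30e-10 and 1.65e-05). Hulk preleukemic samples held 27.3 to 228 CPM, otg ones 0.218 to 0.810 CPM, and healthy thymocytes 30.4 to 82.3 CPM, so on this gene the otg and shrek tumours (0.959 to 11.2 CPM) lay below healthy cells and hulk did not. Reads shared with other S11 copies were not resolved.

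NPTN, which in mammals encodes the adhesion protein neuroplastin, read 1.69, 26.5 and 162 CPM in hulk tumours and 0, 0.233 and 1.05 CPM in otg tumours. Its log2 difference was -7.06 ± 0.78 (adjusted p = 4.19e-08 and 4.52e-05), without overlap. Every hulk tumour also lay above the shrek tumours, which reached 0.53 CPM at most. Healthy thymocytes reached 2.30 CPM, above the lowest hulk tumour.

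The hulk-high genes of the naming rule included some caspase and cytokine genes. Of 24 BCL2 family genes 3 (12.5%) were higher in otg and 1 (4.17%) in hulk, against 9.29% and 19.1% over all genes. The caspase gene casp23 had medians of 18.1 CPM in hulk and 0.126 CPM in otg tumours (log2 difference -6.52 ± 0.78, adjusted p = 2.58e-07 and 1.80e-04), with hulk tumour 5 alone inside the otg range, at 0.524 CPM. CASP6, an executioner caspase in mammals, read 3.3 to 11.9 CPM in hulk and 0 to 2.69 CPM in otg (log2 difference -3.73 ± 0.68, adjusted p = 2.02e-04 and 9.52e-04). Both zebrafish copies of the cytokine tumour necrosis factor were higher in every hulk tumour than in any otg tumour. For tnfb the hulk values were 13.3, 14.5 and 214 CPM and the otg values 0.173, 1.99 and 7.49 CPM, a log2 difference of -3.76 ± 0.69 (adjusted p = 2.44e-04 and 0.009). For tnfa they were 0.651, 4.23 and 37.4 CPM in hulk and at most 0.558 CPM in otg, a difference of -4.99 ± 0.78 (adjusted p = 3.43e-05). Hulk tumour 4 was the highest for both.

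The galectin gene lgals2b, INHBB, which encodes an activin and inhibin subunit, and stxbp6l were also hulk-high. Their hulk medians were 6.27, 12.1 and 18.2 CPM and their otg medians 0.525, 0.175 and 0.259 CPM. The log2 differences were -4.47 ± 0.78, -4.84 ± 0.76 and -4.85 ± 0.95 (adjusted p = 1.32e-04, 3.45e-05 and 4.74e-04). INHBB was at 0 in hulk tumour 7 and at 7.09 CPM or more in the other hulk tumours. BICC1, which encodes an RNA-binding protein, had a log2 difference of -10.58 ± 1.49 (adjusted p = 6.96e-06), but a single library carried most of it: hulk tumour 1 read 347 CPM and the other hulk tumours 0.165 to 5.31 CPM. Without hulk tumour 1 the difference was -5.62 (adjusted p = 5.99e-05).

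A pair of IDs with the symbol GGACT led the otg-high side; in mammals GGACT encodes gamma-glutamylamine cyclotransferase, an enzyme that breaks down the remains of cross-linked proteins. ENSDARG00000038248 read 13, 24.2 and 88.0 CPM in otg tumours and 0, 0.141 and 0.793 CPM in hulk tumours, with a log2 difference of 7.29 ± 1.24 (adjusted p = 1.10e-04 and 1.20e-06). ENSDARG00000070579 read 5.43, 10.5 and 48.2 CPM in otg and at most 0.330 CPM in hulk (6.70 ± 1.25, adjusted p = 3.29e-04 and 4.92e-06). Neither overlapped between the lines, and reads that both copies share cannot be assigned. The first ID was read at 15.9 to 31.2 CPM in otg preleukemic samples and at most 0.149 CPM in hulk ones.

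The inflammasome receptor relative nlrp3l2 read 1.34, 36.7 and 101 CPM in otg tumours and 0.197, 0.743 and 1.19 CPM in hulk tumours, a difference of 5.97 ± 0.84 (adjusted p = 7.19e-06 and 1.44e-04). Healthy thymocytes held 20.1 to 57.4 CPM of it and hulk preleukemic samples 1.16 to 2.65 CPM, so both kinds of hulk sample lay below healthy cells. TMEFF2, a membrane protein gene, read 1.6, 64.9 and 168 CPM in otg and 0, 0.524 and 11.9 CPM in hulk tumours (5.09 ± 0.89, adjusted p = 1.38e-04 and 0.00555). Otg tumour 4 was the only one inside the hulk range. ITGA6, which encodes the laminin-binding integrin alpha 6 chain, read 3.94, 28.3 and 119 CPM in otg tumours and at most 0.720 CPM in hulk tumours other than number 9, which held 13.7 CPM (4.81 ± 0.87, adjusted p = 1.93e-04 and 0.00746).

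**Figure D1:**
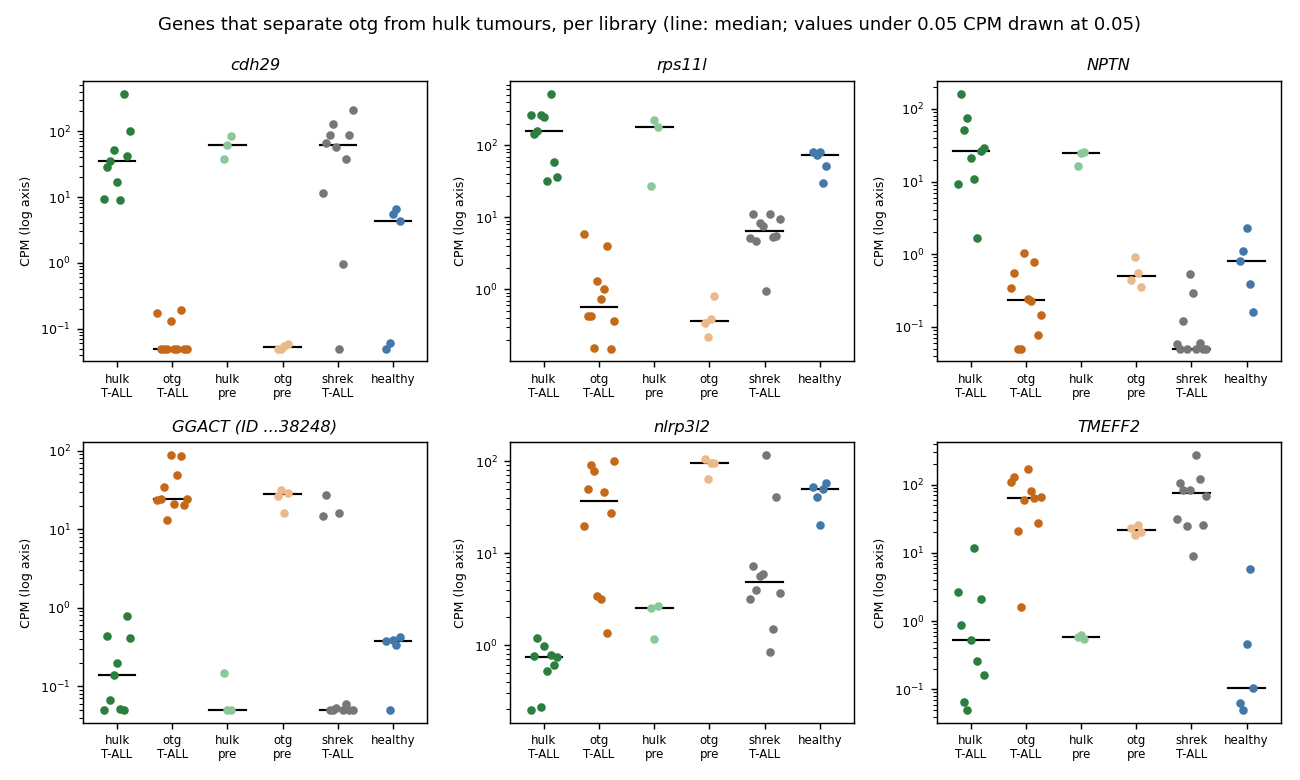
CPM on a log axis in every library of 6 groups for cdh29, rps11l, NPTN, GGACT (ENSDARG00000038248), nlrp3l2 and TMEFF2; each point is 1 library, bars are medians, and values under 0.05 are drawn at 0.05. In the nlrp3l2 panel the hulk preleukemic (pre) samples reach above the hulk tumours and into the low end of the otg tumour range. In the other panels the preleukemic samples lie on the side of the tumours of their line. The healthy and shrek samples side with otg for some genes and with hulk for others.

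Other otg-high genes of the naming rule were ppifb, DHRS7B, ifi44a5, lrp1ba, KIF26A, VAT1L and PIGP, with log2 differences from 2.69 for PIGP to 5.87 for ppifb and all-group adjusted p of at most 2.96e-04. Of these, ifi44a5, a relative of an interferon-induced gene, was read at 0 to 0.0826 CPM in 8 hulk tumours and at 8.10 CPM in hulk 4, against 5.54 to 48.5 CPM in otg. The hulk-high genes of the rule not described above were tor1l3 and prss59.2, a trypsin-like protease gene that also belongs to the pancreas list below.

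Several separating genes have placeholder names only and were picked after their values were seen. ENSDARG00000079703 (si:dkey-18p12.4) averaged 84.7 ± 37.0 CPM (SD, n = 9) in hulk and 0.0298 CPM in otg tumours, 4 reads over the 10 otg tumours, a log2 difference of -10.94 (adjusted p = 6.16e-13 and 1.03e-09). ENSDARG00000055334 had no read in any hulk tumour and 22.2 CPM on average in otg, at least 885-fold more against a floor of 3 reads over all hulk tumours. ENSDARG00000058794 (si:dkey-19a16.2) averaged 16.8 CPM in otg and 0.313 CPM in hulk tumours (log2 difference 5.68, adjusted p = 9.29e-13 and 1.60e-07).

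The preleukemic samples showed whether the lines differed in the same direction in other libraries, taken before overt leukaemia. When the difference arose in any tumour was not tested. Of the 138 separating genes, 131 (94.9%) differed in the same direction between otg and hulk preleukemic thymocytes, where 67.2% of all tested genes did. In 97 of them the 4 otg and 3 hulk preleukemic samples did not overlap either, in the same direction, against 25.7% of all genes. In 38 (27.5%) the preleukemic difference passed the test on its own, against 1.19% of all genes. By line, no overlap was seen before leukaemia for 24 of the 29 otg-high and 73 of the 109 hulk-high genes.

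Over all genes, 260 differed between the preleukemic samples, 56 higher in otg and 204 higher in hulk. The count was unstable: it was 1237 without hulk preleukemic sample 1 and 49 to 70 without any one of the other preleukemic samples. Of the 260, 196 were also called in the tumours, all in the same direction and none in the opposite one, which is 75.4% of the preleukemic calls and 3.16% of the tumour calls. Both sets of calls drew on the same estimate of spread. When each comparison was fitted on its own libraries, 2861 genes differed in preleukemic samples and 317 were called in both, 316 of them in the same direction. No gene passed the test of the tumour difference against the preleukemic difference (smallest adjusted p = 0.176, with 2124 genes under an unadjusted p of 0.05), while DESeq2 called 86 and limma voom 1181.

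**Figure D2:**
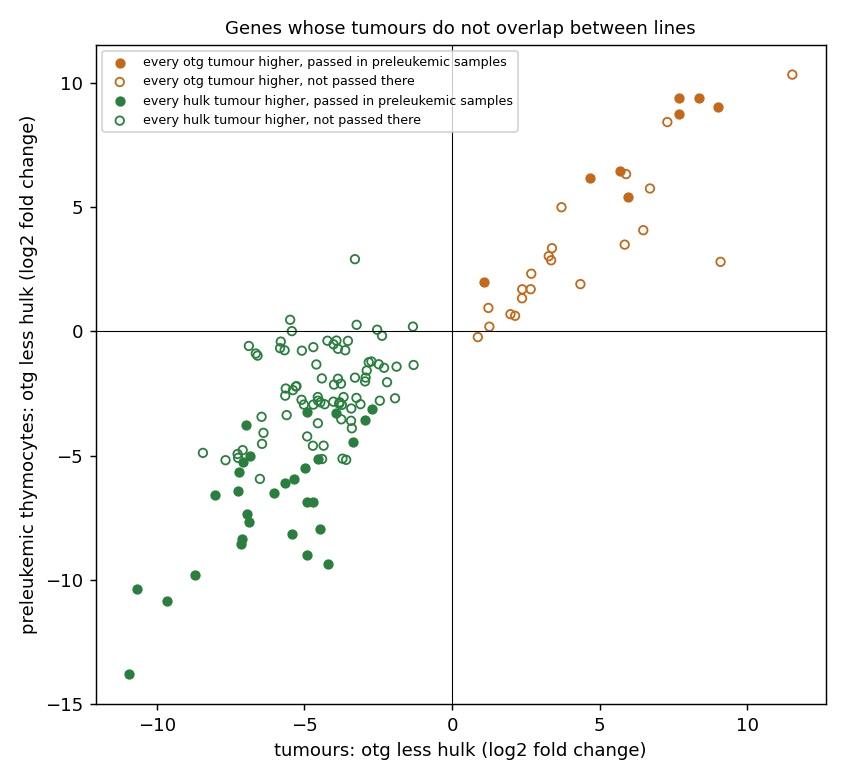
Log2 fold change, otg less hulk, in tumours (x axis) and in preleukemic thymocytes (y axis) for the 138 genes whose tumours do not overlap between the lines; each point is 1 gene, and filled points also passed the test in preleukemic samples. Nearly all points lie in the lower left or upper right part, with 131 of 138 on the same side of 0 on both axes.

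A few tumour differences had no counterpart of like size before leukaemia. BICC1 was read at 0.666 to 5.55 CPM in otg and 0.627 to 3.97 CPM in hulk preleukemic samples (log2 difference 0.52, adjusted p = 0.903), and lrp1ba, a gene of the lipoprotein receptor family, at 1.39 to 1.97 and 0.843 to 2.09 CPM (0.10, adjusted p = 0.983). In tumours lrp1ba read 0.152, 15.8 and 74.5 CPM in otg and 0, 0.743 and 2.5 CPM in hulk. ACKR3, the scavenging receptor for the chemokine CXCL12, was at 1.41 to 4.12 CPM in hulk tumours and at most 0.960 CPM in otg tumours (-3.23 ± 0.63, adjusted p = 4.41e-04 and 0.00303), with a preleukemic difference of 0.27 (adjusted p = 0.920). For none of these did the difference between the comparisons pass its own test.

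For the shrek tumours, the separating genes fell on no single side. All 10 shrek tumours lay within or below the range of the lower line for 34 of the 138 genes and within or above that of the higher line for 9, and they reached into both ranges for 78. The other 17 showed other patterns.

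The thymocyte programme did not separate the lines, although it differed widely from tumour to tumour. Of 41 tested genes of T-cell identity and T-cell receptor signalling, 4 were higher in otg and 3 in hulk (median log2 difference 0.01), which is a smaller share than over all genes, and 1 of 38 passed with both lines alone. Of 20 genes of receptor rearrangement and end joining, 1 passed, tcf3a, under the share of 28.4% over all genes. RAG1 read 145, 705 and 4104 CPM in hulk tumours and 167, 1229 and 13650 CPM in otg tumours (log2 difference 1.21 ± 0.66, adjusted p = 0.158), and RAG2 81.1 to 414 and 20.1 to 538 CPM (0.30 ± 0.39, adjusted p = 0.581). The coreceptor gene cd4-1 read 19.1, 192 and 1295 CPM in hulk and 18.3, 126 and 1053 CPM in otg (0.08 ± 0.64, adjusted p = 0.936), and cd8a 13.9, 285 and 1980 CPM and 14, 198 and 1414 CPM (-0.19 ± 0.65, adjusted p = 0.851). The ranges of the lines overlapped for all 4 genes. RAG1 reached higher in otg than in hulk, and the RAG2 range in otg extended both below and above that in hulk.

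The same 6 tumours, 2 hulk (7 and 9) and 4 otg (1, 3, 8 and 9), were the highest of all 19 for cd4-1, cd8b, RAG1 and one of the MYC IDs, a pattern noticed after the values were seen. In cd4-1 they held 602 to 1295 CPM and the other 13 tumours at most 246 CPM. In cd8b they held 248 to 1213 CPM against at most 124 CPM, and in RAG1 2113 to 13650 CPM against at most 1549 CPM. The MYC gene ENSDARG00000045695 followed the same order, 655 to 3657 CPM in these 6 and 11.2 to 434 CPM in the rest. The order did not extend to related genes: in cd8a the 6 held 210.9 to 1980 CPM and the others up to 692.7 CPM, and in RAG2 171.8 to 538 CPM against up to 428.8 CPM. In lck and TCF7 other tumours were the highest. The other MYC gene, ENSDARG00000007241, lay low in them, at 9.96 to 92.8 CPM, where the rest held 62.4 to 738 CPM. Neither MYC gene differed between the lines (1.21 ± 0.95, adjusted p = 0.342, and 0.31 ± 0.66, adjusted p = 0.750). Hulk 7 and otg 8 of the 6 also had the lowest scaling factors of their lines, and the part of library makeup in this order was not tested.

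One T-cell gene did pass in both fits. TCF7, the transcription factor that starts the T-cell programme, read 35.5, 276 and 972 CPM in otg and 22.8, 69.4 and 156 CPM in hulk tumours (1.94 ± 0.44, adjusted p = 0.00164 and 0.0392). The highest values were in otg 2, 6, 10 and 7, and otg 8 and otg 5 lay inside the hulk range, as did otg 1. ZAP70, the kinase that relays the T-cell receptor signal, was higher in otg by 0.57 ± 0.21 (adjusted p = 0.0333 and 0.264), a call that 9 of the 19 libraries could end by being left out. The interleukin 7 receptor gene il7r (adjusted p = 0.835) and MYB (0.772), a T-ALL oncogene read at 113 to 903 CPM in hulk and 95.6 to 957 CPM in otg, did not pass.

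**Figure D3:**
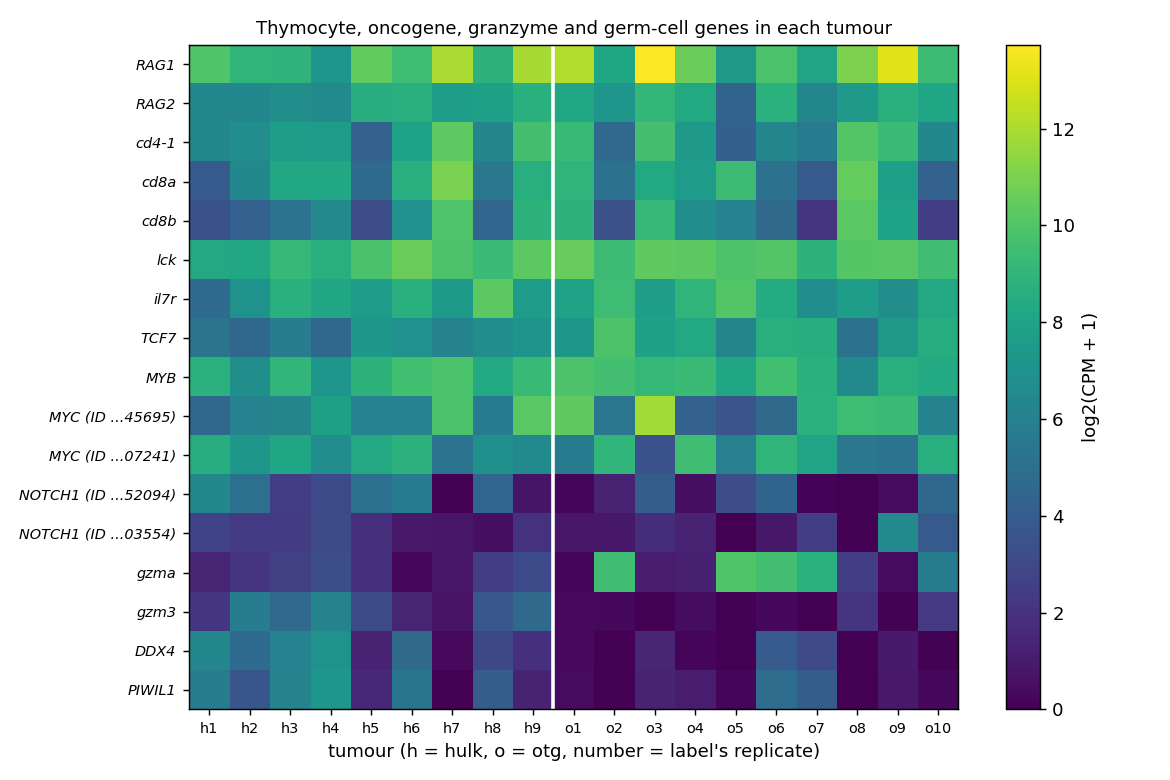
Log2(CPM + 1) of 17 genes in each hulk (h, left of the white line) and otg (o, right) tumour. High RAG1, cd4-1, cd8b and MYC (ENSDARG00000045695) share the columns h7, h9, o1, o3, o8 and o9, gzma is high in o2, o5, o6 and o7, and DDX4 and PIWIL1 are high in most hulk columns.

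Known T-ALL oncogenes were mostly low in both lines. Of 26 tested, 1 (3.85%) was higher in otg and 6 (23.1%) in hulk (median -0.55), near the 19.1% hulk-high over all genes. With both lines alone 1 of 18 passed, higher in hulk, where 3.55% of all genes were. The hulk-high ones were barely read: TAL2 had no read in otg tumours and 0 to 1.3 CPM in hulk (at least 18.7-fold against a floor of 3 reads over all otg tumours), and id2b had medians of 3.73 CPM in hulk and 0.378 CPM in otg (adjusted p = 0.00267). TAL1 (adjusted p = 0.196), LMO2 (0.282) and both MEF2C IDs (0.423 and 0.605) did not pass. In a Notch list of 33 genes, 4 (12.1%) were higher in otg and 2 (6.06%) in hulk, against 9.29% and 19.1% over all genes. LFNG, whose enzyme adds sugar to Notch receptors, read 0.651, 3.69 and 221 CPM in hulk and 0, 0.252 and 1.74 CPM in otg (-5.87 ± 1.04, adjusted p = 1.58e-04 and 0.00875); without hulk tumour 1, which held the 221, the difference was -2.99. The Notch ligand gene jag1a was higher in otg by 1.81 ± 0.54 (adjusted p = 0.0126 and 0.158), and by 0.74 (adjusted p = 0.195) without otg tumour 4. The 2 NOTCH1 IDs did not pass (adjusted p = 0.206 and 0.0884).

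Of 38 tumour suppressor genes, 9 (23.7%) were higher in otg and 2 (5.26%) in hulk with all groups. Over all genes these shares were 9.29% and 19.1%. With both lines alone 0 of 35 passed. PHF6, a suppressor often lost in human T-ALL, was at 0.17 ± 0.19 (adjusted p = 0.510). Polycomb, histone and DNA methylation genes gave 11 (17.2%) higher in otg and 1 (1.56%) in hulk of 64. Genes of PI3K, AKT and mTOR signalling gave 12 (29.3%) and 1 (2.44%) of 41. With both lines alone 0 of 62 and 0 of 39 passed. Without the libraries above 20% mitochondrial reads, which are hulk tumours 1 and 2 and 1 healthy sample, the otg-high counts of these 3 lists were 0, 1 and 4. When scaled by library size alone they were 3, 4 and 3. With limma voom the Polycomb, histone and DNA methylation list gave 19 and the PI3K, AKT and mTOR list 7. Without the tumours with a scaling factor under 0.6 the Polycomb, histone and DNA methylation list gave 21.

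Granzymes and other cytotoxic genes went both ways. The list of NK-like and cytotoxic markers gave 14 members (58.3%) higher in hulk and 1 (4.17%) in otg of 24 (median -2.24). Over all genes these shares were 19.1% and 9.29%. With both lines alone 6 and 1 of 18 were called, against 3.55% and 1.26% over all genes. The granzyme gene gzm3 read 0.651, 12.5 and 70.0 CPM in hulk and 0, 0.242 and 3.89 CPM in otg tumours (-4.77 ± 0.86, adjusted p = 1.82e-04 and 0.0110), and it also differed in preleukemic samples (-6.66, adjusted p = 0.0171). The interferon gamma gene ifng1 read 0.260, 19 and 118 CPM in hulk and 0, 0.302 and 3.74 CPM in otg (-4.96 ± 0.95, adjusted p = 3.96e-04 and 0.0108), and preleukemic samples differed in the same direction (-6.20, adjusted p = 0.0426). Both were lowest in hulk tumour 7 within that line.

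The otg-high member was gzma, another granzyme gene, which was picked for description after its values were seen. It stood at 1019, 807, 730 and 429 CPM in otg tumours 5, 6, 2 and 7 and at 53.3 CPM in otg 10, while the other otg tumours held at most 4.80 CPM and hulk tumours 0.208 to 9.02 CPM. Otg tumours 2, 5, 6, 7 and 10 thus lay above all hulk tumours and the rest among or below them, with a log2 difference of 6.29 ± 1.25 (adjusted p = 5.50e-04 and 0.0210). With limma voom the difference was 1.39 (adjusted p = 0.53), and over the other alternatives without a block it lay past the threshold. Otg preleukemic samples held 32.8 to 62.8 CPM and healthy thymocytes 29.2 to 64.5 CPM, so otg tumours 2, 5, 6 and 7 lay above healthy cells and the hulk tumours below them.

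Chemokines and homing genes gave 10 members higher in hulk (21.3%, close to the 19.1% over all genes) and 0 in otg of 47 (median -0.49). With both lines alone 5 of 35 were higher in hulk, where 3.55% of all genes were. With limma voom and all groups 23 of 47 were, where 4838 of 21831 genes were. The chemokine genes ccl34b.4 and ccl38.6 had medians of 67.6 and 90.1 CPM in hulk and 1.76 and 1.04 CPM in otg tumours (-4.50 ± 0.81 and -4.38 ± 1.01, adjusted p = 1.88e-04 and 0.00217). Interferon response genes gave 8 higher in hulk (15.7%, under the 19.1% over all genes) and 2 in otg of 51. With both lines alone they gave 4 and 0 of 43, against 3.55% and 1.26% over all genes. With limma voom and all groups 13 of 51 were higher in hulk. The interferon regulatory factor gene irf1b was among the most abundant of the hulk-high genes, at 332, 729 and 1346 CPM in hulk and 61.8, 174 and 464 CPM in otg (-1.70 ± 0.35, adjusted p = 6.78e-04 and 0.0115). The protein kinase gene pkz read 8.59 to 63.2 CPM in hulk and 0.260 to 14.7 CPM in otg (-2.63 ± 0.48, adjusted p = 1.82e-04 and 0.00958). It also differed in preleukemic samples (-4.80, adjusted p = 0.00132). In contrast ifi30b had no read in hulk tumours and 0.121 to 14.1 CPM in otg, at least 164-fold on average against a floor of 3 reads over all hulk tumours.

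Fish-specific immune receptor families (nitr, NLR and finTRIM genes) gave 32 (31.4%) higher in hulk and 3 (2.94%) in otg of 102. Over all genes these shares were 19.1% and 9.29%. With both lines alone 4 and 2 of 63 were called, against 3.55% and 1.26% over all genes. Most members were under 5 CPM, for example nitr6a, of the immunoglobulin-type nitr receptors, with at most 4.45 CPM in hulk and 0.0720 CPM in otg tumours (adjusted p = 6.90e-05). Of 42 antigen presentation genes, 4 were higher in hulk (9.52%, against 19.1% over all genes) and 0 in otg, led in abundance by mhc1zba, a class I gene, at 567 to 1319 CPM in hulk and 360 to 914 CPM in otg (-0.82 ± 0.22, adjusted p = 0.00524 and 0.0361).

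Immediate early and heat shock genes gave 7 higher in hulk (14.3%, against 19.1% over all genes) and 2 in otg of 49. With both lines alone 2 and 0 of 43 were called, against 3.55% and 1.26% over all genes. Without the libraries above 20% mitochondrial reads the counts were 4 and 1. DUSP5, a phosphatase that acts on ERK, had medians of 84.1 CPM in hulk and 5.31 CPM in otg tumours (-3.33 ± 0.64, adjusted p = 3.79e-04 and 0.00808). Mitosis genes gave 7 higher in hulk (15.6%, against 19.1% over all genes) and 0 in otg of 45 (median -0.53). With both lines alone 2 of 45 were higher in hulk, where 3.55% of all genes were. These were RACGAP1 and PRC1, which act in the central spindle. PRC1 read 18.7, 32.8 and 98.4 CPM in hulk and 5.25, 16.7 and 25.6 CPM in otg (-1.25 ± 0.32, adjusted p = 0.00435 and 0.0268), and the ranges overlapped between 18.7 and 25.6 CPM. S phase genes gave 2 (3.7%) in each direction of 54 (median 0.01), against 9.29% higher in otg and 19.1% higher in hulk over all genes.

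Germ-cell and meiosis genes were read more in hulk tumours. Of 50 tested, 33 (66%) were higher in hulk and 0 in otg (median log2 difference -3.69), against 19.1% and 9.29% over all genes. The filter with all groups asked for enough reads in only as many libraries as the smallest group has. A member could thus be tested through a few hulk tumours where it was high, here and in the other lists, so these shares are description. With both lines alone 3 of 22 were higher in hulk, where 3.55% of all genes were. The list took 0.00562% to 0.172% of reads in hulk tumours (median 0.0536%) and 0.00230% to 0.0240% in otg tumours (median 0.0130%). Of its 59 members, 5 had no read in any otg tumour against 0 in hulk. That share was not counted over all genes, and otg tumours had fewer genes with at least 10 reads in general (median 12560 against 15662). DDX4, the vasa helicase of germ cells, read 0.260, 26.1 and 130 CPM in hulk and 0, 0.206 and 14.2 CPM in otg tumours (-3.95 ± 1.21, adjusted p = 0.0146 and 0.0519). PIWIL1, which binds the small RNAs of germ cells, read 0, 15.6 and 149 CPM in hulk and 0, 0.627 and 28.6 CPM in otg (-2.98 ± 1.16, adjusted p = 0.0489 and 0.137), and 13 of 19 libraries ended its call when left out. DMC1, the meiotic recombinase, was at 0 to 32.2 CPM in hulk and 0 to 5.82 CPM in otg (-3.70 ± 1.22, adjusted p = 0.0219). All 3 were highest in hulk tumour 4, low in hulk 5, 7 and 9, and highest among otg tumours in number 6, so the lines overlapped. In preleukemic samples none of them exceeded 1.25 CPM, and healthy thymocytes held at most 0.328 CPM.

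Many markers of other cell types were higher in hulk, against 19.1% of all genes. With all groups, members called hulk-high and otg-high were 14 and 0 of 24 for B cells, 11 and 0 of 22 for thymic epithelium, 18 and 2 of 28 for fibroblasts and matrix, 14 and 0 of 22 for skin epithelium and 13 and 0 of 27 for skeletal muscle. They were 12 and 0 of 31 for liver and plasma proteins, 12 and 0 of 28 for exocrine pancreas, 10 and 0 of 18 for kidney tubule, 10 and 0 of 17 for thrombocytes and 10 and 2 of 27 for macrophages. Neutrophil (1 and 0 of 16) and erythroid markers (3 and 0 of 23) gave fewer. Stem and progenitor markers gave 6 and 0 of 17. Endothelium markers went both ways, with 8 (36.4%) hulk-high and 3 (13.6%) otg-high of 22, where 9.29% of all genes were otg-high. With both lines alone, 7 of 13 thymic epithelial, 7 of 14 skin, 9 of 18 pancreas and 6 of 18 liver markers were still called, all hulk-high, as were 5 of 8 thrombocyte, 4 of 11 muscle and 3 of 10 kidney markers. Over all genes 3.55% were hulk-high and 1.26% otg-high in that fit. Fewer were called for B cells (3 of 15) and macrophages (2 of 20), 0 for erythroid cells (of 10), neutrophils (of 14) and endothelium (of 5), and fibroblast markers gave 6 hulk-high and 1 otg-high of 14. Of 7 stem and progenitor markers, 2 were hulk-high and 0 otg-high. The low neutrophil and erythroid counts with all groups depended on the method. With limma voom 12 of 16 neutrophil and 11 of 23 erythroid markers were hulk-high, where 4838 of 21831 genes were. When scaled by library size alone the hulk-high counts were 4 and 7, where 5116 genes were.

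All of these lists were a small part of the reads. Pancreas markers took 0.00533% to 0.0423% of reads in hulk and 0.000643% to 0.00576% in otg tumours, liver markers 0.00381% to 0.0993% and 0.000218% to 0.0356%, and thymic epithelial markers 0.0110% to 0.130% and 0.00118% to 0.0135%. The keratin gene krt8 read 46.8, 68.4 and 160 CPM in hulk and 2.51, 14.4 and 47.4 CPM in otg (-2.33 ± 0.44, adjusted p = 3.36e-04 and 0.00607), with otg tumour 7 alone inside the hulk range. The B-cell markers cd79b and PAX5 were near 0 in both lines: cd79b reached 2.46 CPM in hulk and 0.288 CPM in otg, and PAX5 0.976 and 0.144 CPM. Another, cd79a, was higher in hulk (log2 difference -1.51, adjusted p = 0.0127), and lost its call without hulk tumour 4 (adjusted p = 0.0506). The B-list genes with higher reads, cd83, SYK and XBP1 (hulk medians 96.0, 60.9 and 148 CPM, otg medians 12.6, 3.60 and 34.8 CPM), are also used by other immune cells, and SYK stood at 70.9 CPM in otg tumour 10 against at most 4.80 CPM in its line. From bulk libraries, fewer cells of a type and less RNA per cell cannot be told apart, and the part of other cells in the hulk-high immune and germ-cell genes was not tested.

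**Figure D4:**
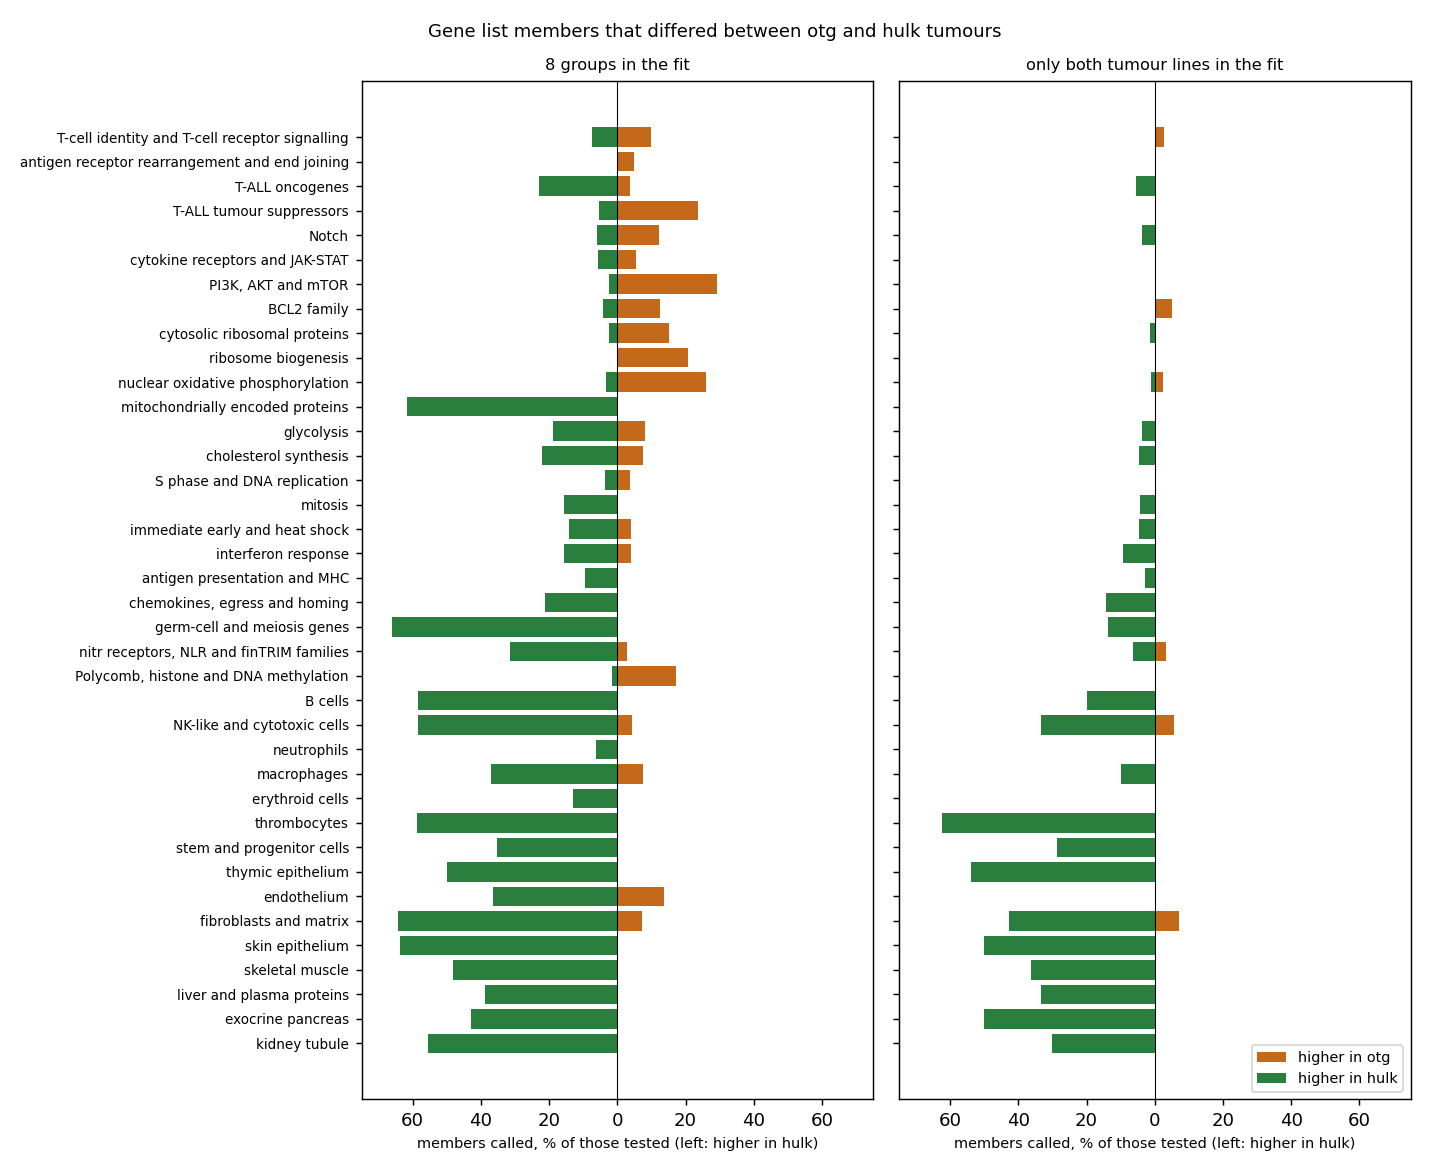
Share of the tested members of the gene lists shown that were called, with bars to the right for genes higher in otg and to the left for genes higher in hulk; the left panel is the fit with 8 groups and the right panel the fit with both tumour lines alone. Over all genes the shares were 9.29% and 19.1% on the left panel and 1.26% and 3.55% on the right one; skin, thymic epithelial, pancreas, liver and muscle markers exceed these on the hulk side in both panels, and erythroid and neutrophil markers in neither.

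Genes of protein synthesis and of energy supply depended on the fit. Ribosomal proteins gave 12 (15.2%) higher in otg and 2 (2.53%) in hulk of 79 with all groups, against 9.29% and 19.1% over all genes. With both lines alone they gave 0 and 1 of 78, the 1 being rps11l. RPL4 read 4708, 8188 and 27210 CPM in otg and 2193, 3171 and 10600 CPM in hulk tumours (1.21 ± 0.31, adjusted p = 0.00454 and 0.0940). The elongation factor gene eef1a1l1 read 17270, 33010 and 127800 CPM in otg and 6725, 14580 and 52180 CPM in hulk (1.28 ± 0.35, adjusted p = 0.00744 and 0.126). The highest otg value of both was in tumour 8 and the highest hulk value in tumour 7, the libraries with the lowest scaling factors of their lines. SLC25A5, which carries ADP and ATP across the mitochondrial membrane, was at 1.14 ± 0.36 (adjusted p = 0.0179 and 0.196), and at 0.53 (adjusted p = 0.153) without otg tumour 8. Without otg 8, RPL3, RPL5, RPS14 and RPSA2 also lost their calls. Ribosome biogenesis genes gave 13 (20.6%) higher in otg and 0 in hulk of 63. The otg-high count was 0 of 63 with both lines alone and 0 with scaling by library size. It was 20 with limma voom and 21 without the tumours with a scaling factor under 0.6.

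Nuclear oxidative phosphorylation genes gave 23 (26.1%) higher in otg and 3 (3.41%) in hulk of 88, against 9.29% and 19.1% over all genes. These counts were 5 and 15 when scaled by library size alone. Without the tumours with a scaling factor under 0.6 they were 8 and 12. With both lines alone they were 2 and 1 of 85, and with limma voom 9 and 8. Without the libraries above 20% mitochondrial reads they were 13 and 1. The hulk-high count was thus the larger with library size alone and without the low-factor tumours, but not in the other settings given here. The cause was not tested. SDHA, a subunit of succinate dehydrogenase, and CYC1, of complex III, passed in both fits: SDHA read 77.0, 134 and 434 CPM in otg and 39.3, 64.1 and 92.3 CPM in hulk (1.43 ± 0.24, adjusted p = 7.89e-05 and 0.0148). The mitochondrially encoded genes went the other way, with 8 (61.5%) higher in hulk and 0 in otg of 13 (median -1.74). With both lines alone 0 of 13 passed. MT-ATP6 read 505, 4279 and 109000 CPM in hulk and 92.8, 1980 and 14460 CPM in otg (-2.11 ± 0.69, adjusted p = 0.0195 and 0.127), with only hulk tumours 1 and 2 above the otg range. Without hulk tumour 2 its difference was -0.69 (adjusted p = 0.400), and mt-atp8, MT-ND2, MT-ND3, MT-ND4, mt-nd4l and MT-ND5 lost their calls too.

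**Figure D5:**
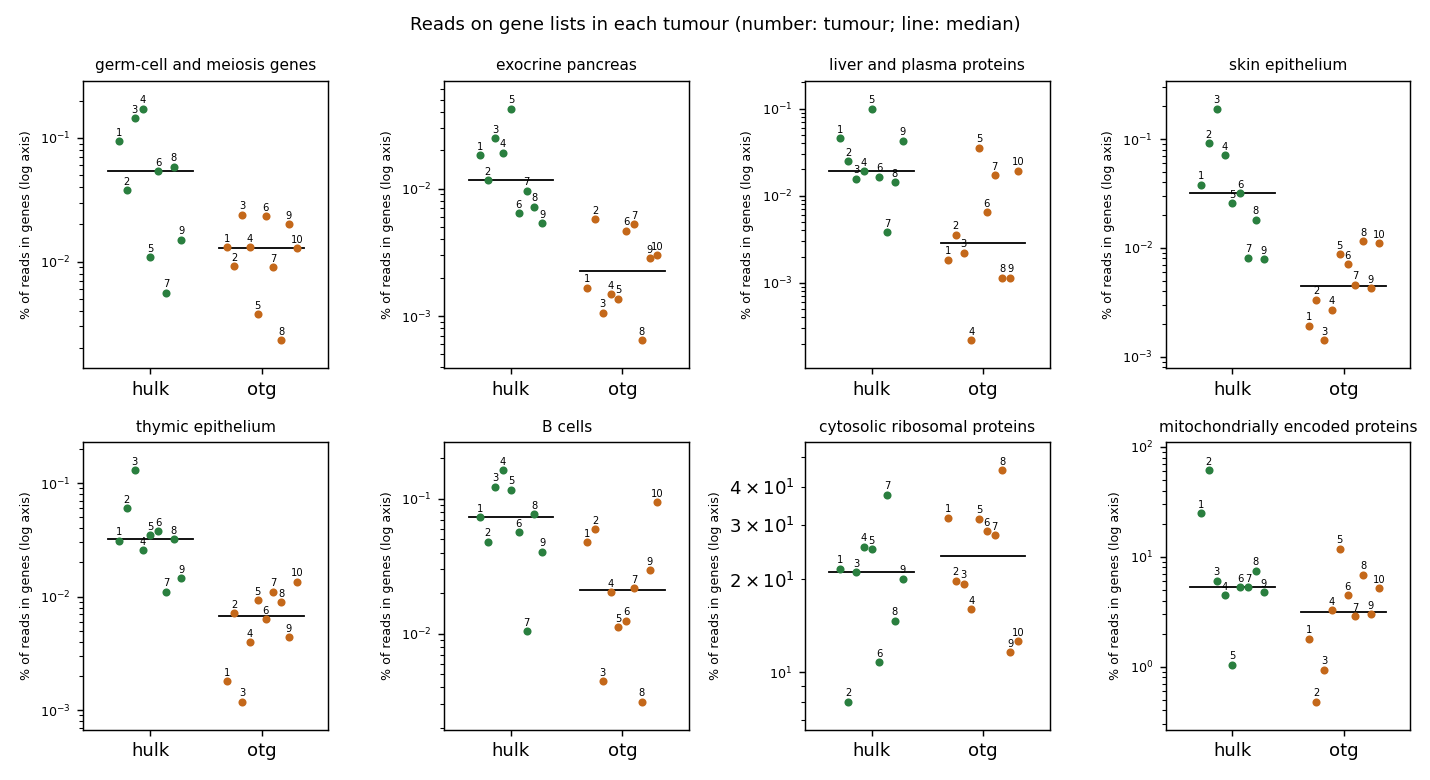
Percent of each tumour's reads (log axis) on 8 gene lists; each point is 1 tumour with its number, and bars are medians. Germ-cell, pancreas, liver, skin, thymic epithelial and B-cell lists are lower in most otg tumours, ribosomal genes are highest in otg 8 and hulk 7, and mitochondrially encoded genes are highest in hulk 2 and 1.

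Genes of the circadian clock were a group noticed after their values were seen, so their counts carry no weight as a list. CRY1 (ENSDARG00000045768), a repressor of the clock, read 21.1, 148 and 294 CPM in otg and 18.7, 34.9 and 59.7 CPM in hulk tumours (1.91 ± 0.44, adjusted p = 0.00204 and 0.0177), with otg 6 and 8 inside the hulk range. PER2, another clock repressor that light induces in zebrafish, read 0.384, 72.2 and 192 CPM in otg and 1.77, 9.38 and 36.5 CPM in hulk (2.39 ± 0.70, adjusted p = 0.0111 and 0.0535). The cryptochrome gene cry-dash read 3.07, 21.9 and 90.6 CPM in otg and 4.17, 5.87 and 12 CPM in hulk (2.11 ± 0.44, adjusted p = 8.40e-04 and 0.0174). Of the 17 genes looked at, both CLOCK IDs (2.35 and 1.18, adjusted p = 0.0074 and 0.0373) and tefb (1.47, adjusted p = 0.0074) were also higher in otg. For the second CLOCK ID, ENSDARG00000003631, 10 of the 19 tumours ended the call when left out. BHLHE40 (-2.74, adjusted p = 0.00851) was higher in hulk. The 17 include WRNIP1, which is not a clock gene and was higher in otg (2.39, adjusted p = 1.86e-04). The other CRY1 ID (-0.04, adjusted p = 0.961), both PER1 IDs (0.656 and 0.364), both BMAL1 IDs (0.915 and 0.459) NR1D1 (0.540), npas2 (0.662), nfil3-5 (0.277) and nfil3-6 (0.316) did not pass. Preleukemic samples of the lines had like values of CRY1 (76.2 to 161 CPM in otg, 69.4 to 212 CPM in hulk) and PER2 (44.8 to 197 and 63.4 to 130 CPM), so the hulk tumours lay below both.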

How the data were processed

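Poly(A) RNA was sequenced from sorted cells with a stranded kit, per the labels' protocols. The authors deposited raw read counts per Ensembl gene. The submitters' processing notes name STAR and GRCz10; annotation, versions and strand setting are not given in the sources used here. The tables hold 35117 genes, 27000 with a symbol, and paralogues can share a human symbol. Unassigned reads, 17.9% to 49.3% of tumour totals, and 9 columns matching no labelled sample were not used. Counts of 46 libraries in 8 groups were fitted with edgeR 4.0.16 in R 4.3.3 (TMM, filterByExpr with minimum count 10 and total 15, robust quasi-likelihood F-tests, Benjamini-Hochberg adjustment over all genes, threshold 0.05). The SE is the log2 fold change divided by the root of F. The code was tested on simulated data. No 2 libraries of a group agreed within counting error.

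The comparison, its 39 gene lists (1409 names, 163 matching no gene) and the naming rule were chosen with earlier results of these data known. Named genes were called genes changed by 1 or more on the log2 scale, either at 8 CPM or above with 80% of tumours beyond the other line (12 per direction) or among the 8 most abundant per direction, up to 4 per list, and a fixed panel. S6 kinases caught by the ribosomal name pattern were dropped. Alternatives used DESeq2 1.42.0, limma 3.58.1 voom with sample weights, other scalings, filters and sample sets. A floor is 3 reads and covers counting error only. Some genes are not reported here.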

Additional observations from a re-analysis of the deposited data

Results flagged for a closer look

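For 230 named genes in 3 groups, 479 gene and group pairs reached 5 CPM and were tested for 1 library far from the others on the scale log2(CPM + 1), by Dixon's gap test. With the library measures, 38 values are given here; chance passes about 5% of groups, so many of them may be no more than chance gives. Values are CPM, with the nearest other library of the line where it helps.

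Among hulk tumours, number 7 stood apart most often. It was highest for RPL3 (26550, next 7883), SLC25A5 (15020, next 6127), RPL5 (16230, next 5295), CDKN1B ENSDARG00000054271 (547.9, next 201.7) and RICTOR (1118, next 35.9). It was lowest for INHBB (0, next 7.09), tnfrsf9a (2.344, next 24.2), il2rgb (2.083, next 16.0), STAT3 (5.729, next 15.6), bcl2l12 (1.432, next 4.13), DUSP5 (3.646, next 34) and WRNIP1 (1.693, next 6.27).

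Hulk tumour 1 was far above its line for BICC1 (346.6, next 5.31) and LFNG (221, next 9.0) and below it for PIK3CG (32.37, next 70.5). Hulk tumour 4 was highest for tnfb (214.4, next 32.2), tnfa (37.4, next 7.13) and ifi44a5 (8.099, next 0.0826). Hulk tumour 9 was highest for ITGA6 (13.71, next 0.720) and malt1 (16.85, next 10.5) and lowest for insig1 (5.038, next 10). Hulk tumour 8 was highest for CRY1 ENSDARG00000011583 (292.3, next 38.5) and ALOX5 (7.867, next 0.858). TMEFF2 stood at 11.92 in hulk 6, zp3b at 148.2 in hulk 3, SPTB at 5.368 in hulk 5 and COL5A2 at 5.207 in hulk 2. Mitochondrial genes took 61.4% of the reads of hulk 2, with 25% next.

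Among otg tumours, number 8 was lowest for STAT3 (2.879, next 19), RICTOR (3.263, next 15.8) and nfil3-5 (0.3839, next 17.2). Otg 6 was highest for zp3b (5.942) and DMC1 (5.82), otg 10 for SYK (70.94, next 4.80) and otg 5 for LMO2 (5.388, next 1.33). Otg 4 was lowest for TMEFF2 (1.605, next 21.2) and otg 2 for mt-atp8 (5.686, next 64.9). In otg preleukemic samples, cnot3b stood at 32.49 in number 4, with 40.7 next.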

How the results depend on the processing

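The count of 6196 genes between the tumours held within 1.5 times under DESeq2, limma voom, other scalings, no filter, and leaving out single tumours (4810 to 6991). It was 650 with only the groups compared, 3504 when those were fitted on the genes tested with all groups, 1637 with the 3 tumour lines, 3287 with a mean of at least 1 CPM, and 3905 without libraries above 20% mitochondrial reads. Same-numbered tumours did not pair: their deviations correlated at -0.349 to 0.35 over 9 pairs, and 1 tumour correlated best with its own number; a replicate block gave 242 genes in tumours and 931 in preleukemic samples. The preleukemic count of 260 was 2861 with only the groups compared, 3123 on the genes tested with all groups, 118 with library size alone, 118 without a filter, 1128 with DESeq2, 5369 with limma voom, 407 without libraries above 20% mitochondrial reads, and 49 to 1237 without single samples. The test between tumours and preleukemic samples gave 86 genes with DESeq2 and 1181 with limma voom. Genes without overlap numbered 499 without the tumours with a scaling factor under 0.6, a number that leaving out tumours can only keep or raise. That alternative was chosen after seeing the data, as were the 3504, 1637 and 3123.

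Of 196 named genes called, 45 lost the call without at least 1 tumour and 33 moved over 1.5 times. Without libraries above 20% mitochondrial reads, log2 differences turned to 0.34 (MT-ND4), 0.0047 (MT-ND5), 0.029 (MT-ND2), 0.46 (mt-nd4l), 0.072 (mt-atp8) and 0.44 (MT-ND6). RICTOR turned to 0.41 with DESeq2, 0.51 with limma voom and 0.79 (adjusted p = 0.00795) without the low-factor tumours, and ranged from -2.22 to 0.55 without single tumours, the 0.55 without hulk 7. CRY1 (ENSDARG00000011583) ranged from -0.46 to 1.15, the latter without hulk 8 (adjusted p = 0.0484). The cause was not tested. Genes under a few CPM rest on few reads, which limits their fold changes.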

Other observations

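Of the 138 genes that separated the lines, 81 could be placed in gene order, and 8 of these (9.88%) had another such gene within 10 genes, where 4.43% of all 14074 placed genes had one. The order comes from a reference list of another assembly, so no coordinates are given, and the difference was not tested.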
